A study of Homo sapiens with 26 samples.

Results

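Estrogen receptor (ER) binding sites of T47D cells given estradiol and R5020 together were set against those of T47D cells given estradiol alone. T47D cells, a long-established line from a human breast tumour, have both ER and the progesterone receptor (PR). Estradiol (E2) is the main natural estrogen, and R5020 is a synthetic progestin. Members were all rows of both deposited ER lists, 19220 sites with E2+R5020 and 4014 sites with E2, out of 87206 sites in the 10 lists of the series. A site was placed in a class by overlap of 1 bp or more with the other list. This gave 18361 gained sites (listed with E2+R5020 and not with E2), 859 kept sites of the E2+R5020 list, 781 kept sites of the E2 list and 3233 lost sites (listed with E2 and not with E2+R5020). Gained, kept and lost are names for membership in a list and not for a measured change in ER occupancy.

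Both groups were steroid-deprived T47D cells. The E2+R5020 cells received 10 nM of each hormone and the E2 cells 10 nM estradiol, for 45 min. ER was precipitated with the HC-20 antibody and the DNA was sequenced (ChIP-seq). Each group had 1 library, so no value below has a replicate error and no test between the hormones could be made. Intervals in brackets after a share are 95% Clopper-Pearson (exact) intervals. They cover counting error alone, and sites are not replicates. Read depth was not stated. Per the labels, a vehicle library had been subtracted from each list. The other 8 lists served as measures that the classes did not use: ER with R5020, PR (KD68 antibody) with E2+R5020, R5020 or E2, a sequential precipitation of ER and then PR with E2+R5020 (reChIP), and ER in PR-deficient T47D cells with E2+R5020, R5020 or E2. How the PR-deficient cells were made was not stated in the labels.

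ER and PR are nuclear receptors, transcription factors switched on by a steroid ligand. ER is known to recognise palindromic estrogen response elements, and PR the response elements that it shares with the glucocorticoid and androgen receptors. In luminal breast cancer cells both receptors bind mostly at enhancers opened by factors such as FOXA1 and GATA3. Liganded PR has been described to associate with ER and to be found with it on chromatin. The study's title names the joint action of both receptors, and the comparison bears on where ER was listed once a progestin was added to estrogen.

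The 2 lists overlapped at a small part of their sites. Of the E2+R5020 sites, 4.47% (4.18 to 4.77) were kept and 95.5% were gained. Of the E2 sites, 19.5% (18.2 to 20.7) were kept and 80.5% were lost. Of the 781 kept E2 sites, 707 held 1 E2+R5020 site, 70 held 2 and 4 held 3. The kept share of E2 sites was 12.3% with every site set to 200 bp, 6.23% with as many E2+R5020 sites as E2 sites, taken by score, and 1.12% where the overlap had to span 50% or more of each site. No E2+R5020 site touched more than 1 E2 site. Few sites lay close to the boundary between classes. The smallest overlap was 33 bp, and 3 of the 859 kept E2+R5020 sites overlapped by under 50 bp. Across the boundary, 19 lost sites had an E2+R5020 site within a gap of 500 bp and 51 within 1000 bp. The median gap from a gained site to the nearest E2 site was 362 kb, and from a lost site to the nearest E2+R5020 site 43.5 kb.

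The 2 lists differed in the shape of their sites. The median width was 207 bp for gained sites and 315 bp for kept sites of the E2+R5020 list, against 1400 bp for kept and 1122 bp for lost sites of the E2 list. A kept place was therefore a narrow E2+R5020 site within a wide E2 site, with a median ratio of 4.53 between the E2 width and the E2+R5020 width. Of the 859 kept E2+R5020 sites, 843 (98.1%) lay wholly inside their E2 site. They lay near its middle: the median distance between centres was 148.5 bp (quartiles 64.8 and 335 bp), and 739 (86%) had their centre in the inner 50% of the E2 site. E2 sites that held 2 or more E2+R5020 sites were wider, with a median of 1790 bp in 74 sites, against 1370 bp in those that held 1.

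**Figure D1:**
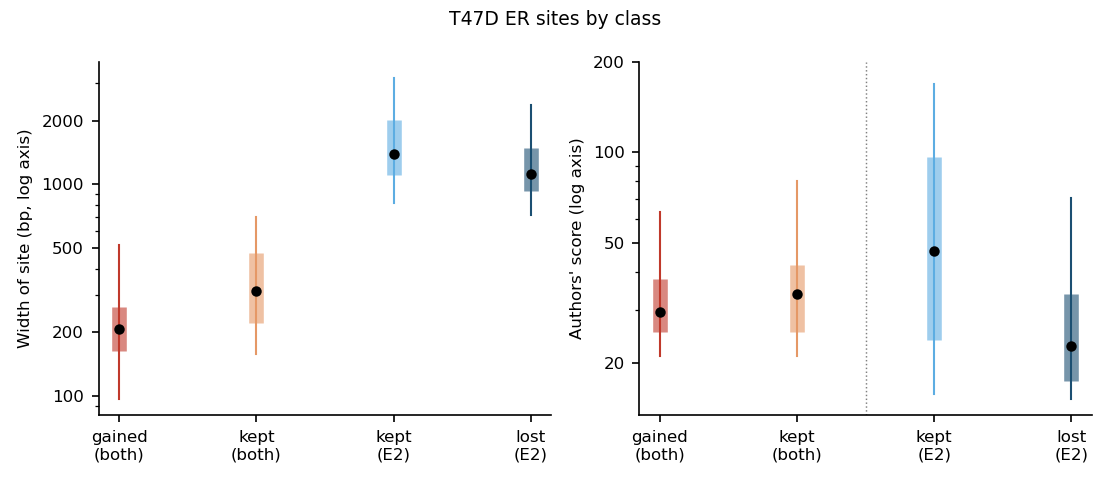
Width in bp (left, log axis) and the authors' score (right, log axis) of gained and kept sites of the E2+R5020 list and of kept and lost sites of the E2 list; dots are medians, thick bars quartiles and thin lines the range from the 5th to the 95th percentile. E2+R5020 sites were narrow, with medians of 207 and 315 bp, E2 sites were wide, with medians of 1400 and 1122 bp, and scores can be compared only on the same side of the dotted line.

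Within each list, kept sites scored higher than the sites of that list alone. The score is the authors' own value per site, its unit was not given in the sources used here, and it was compared only within a list. In the E2+R5020 list the median score was 29.5 for gained sites (quartiles 25.3 and 37.9) and 33.7 for kept sites (25.3 and 42.1), so that both classes covered much the same range. In the E2 list it was 47.1 for kept sites (23.9 and 96.5) and 22.7 for lost sites (17.4 and 33.7). The share of E2 sites that were kept lay between 7.98% and 13.5% in each of the 6 lowest deciles by E2 score. It was 16.5% in decile 7, 20.9% in decile 8, 30.2% in decile 9 and 66.3% (61.5 to 71) in decile 10. Wide sites have more room for an overlap, and width moved with score. Within the highest-scoring quartile, 51% (46.5 to 55.5) of the wider and 36% (31.8 to 40.4) of the narrower E2 sites were kept. The narrower sites of that quartile had a median width of 1163 bp, and the wider sites of the lowest quartile a median of 1332 bp with 9.36% (6.96 to 12.3) kept. In the E2+R5020 list, the kept share was 3.75% (3.23 to 4.32) in the lowest and 5.87% (5.22 to 6.57) in the highest quartile by its own score. At kept places the E2 score and the E2+R5020 score were only loosely related (Spearman rho 0.19 over 859 sites, a description across sites of the same 2 libraries).

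**Figure D2:**
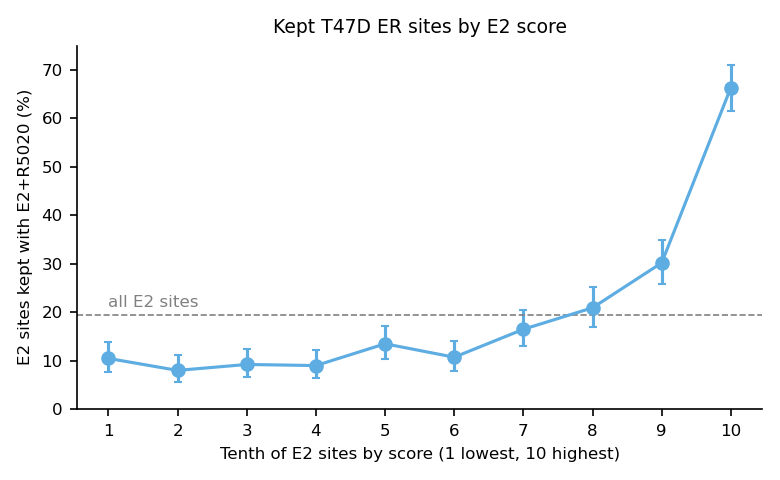
Share of E2 sites that were kept with E2+R5020 (percent) in each decile of the E2 list by E2 score, with exact 95% intervals for counting error; the dashed line is the share over all E2 sites, 19.5%. The 6 lowest deciles stayed below 14%, and decile 10 reached 66.3%.

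Kept sites overlapped the PR and reChIP sites of E2+R5020 more often than gained or lost sites did. The reChIP list of E2+R5020 held 8.28% (7.89 to 8.69) of the gained sites and 53.1% (49.7 to 56.5) of the kept sites of the E2+R5020 list, and 55.3% (51.8 to 58.8) of the kept and 6.87% (6.02 to 7.79) of the lost sites of the E2 list. Over all sites the share was 10.3% in the E2+R5020 list and 16.3% in the E2 list. The PR list of E2+R5020 likewise held kept sites most often: 3.66% of gained and 37.3% of kept E2+R5020 sites, and 40.8% of kept and 8.04% of lost E2 sites. Gained sites stood above lost sites in the reChIP list and below them in the PR list. Over all sites the PR list held 5.16% of the E2+R5020 list and 14.4% of the E2 list. At least 1 of these 2 lists held 10.2% of gained, 62.5% and 65.8% of kept, and 13.1% of lost sites. It was 12.5% over the whole E2+R5020 list, close to the gained share, and 23.4% over the whole E2 list. The PR list of R5020 alone held 1.17% of gained and 6.05% of kept E2+R5020 sites, and 8.07% of kept and 2.01% of lost E2 sites. Its shares over the whole lists were 1.39% with E2+R5020 and 3.19% with E2. The PR list of E2 held between 1.51% and 3.2% of each class, with intervals that overlapped between kept and lost E2 sites. Its shares over the whole lists were 1.62% with E2+R5020 and 2.37% with E2. The reChIP and PR lists of E2+R5020 came from the same cell line and hormone treatment as the list that defines the kept class. The reChIP also began, like that list, with a precipitation of ER, so a higher share in kept sites is partly built in. The part of the shared treatment and target in the overlap was not tested.

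Lost sites were wider than gained sites, which gave them more room to overlap. With every site set to 200 bp around its centre (classes unchanged, chosen after seeing the data), the PR list of E2+R5020 held 3.41% of gained and 4.86% of lost sites, and the reChIP list 7.55% of gained and 4.64% of lost sites. Under the same setting the kept sites stayed apart from both: the reChIP list held 50.4% of those in the E2+R5020 list and 34.4% of those in the E2 list.

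**Figure D3:**
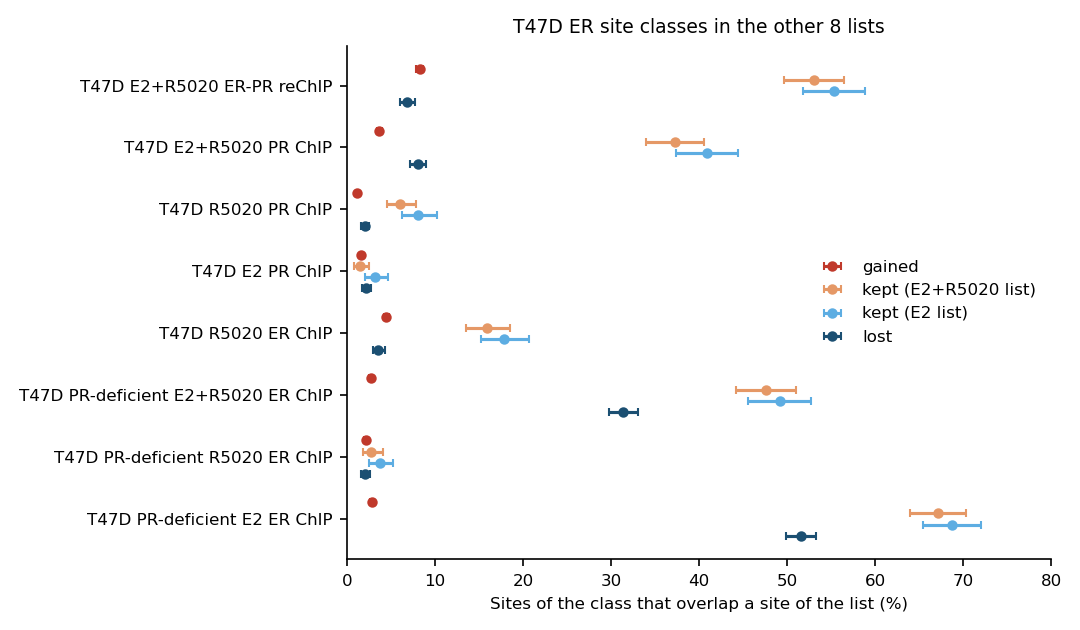
Share of each class (percent, with exact 95% intervals for counting error) that overlapped a site of each of the other 8 lists; colours mark gained and kept sites of the E2+R5020 list and kept and lost sites of the E2 list. Kept sites stand to the right in the reChIP list and the PR list of E2+R5020, gained sites stay under 9% in every list, and lost sites reach 31.4% and 51.6% in the PR-deficient lists of E2+R5020 and E2.

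Lost sites were often in the PR-deficient lists of E2+R5020 and E2, and seldom in the ER lists of R5020 alone. The ER list of R5020 held 3.59% of lost and 17.8% of kept E2 sites in T47D, and 6.35% of all E2 sites. Its PR-deficient counterpart held 2.1%, 3.71% and 2.42%. In PR-deficient cells the E2+R5020 list held 49.2% (45.6 to 52.7) of the kept and 31.4% (29.8 to 33) of the lost E2 sites, and the E2 list held 68.8% (65.4 to 72) of the kept and 51.6% (49.8 to 53.3) of the lost E2 sites. Over all E2 sites, of which most were lost, these lists held 34.9% and 54.9%. Of the 3233 lost sites, 984 (30.4%) were thus listed both with E2+R5020 and with E2 in PR-deficient cells. Among the lost sites that the PR-deficient E2 list held, 59% (56.6 to 61.4) were also in its E2+R5020 counterpart. This was 69.8% (65.8 to 73.7) for kept sites, and 55.5% (54.4 to 56.6) for all 7742 PR-deficient E2 sites. Gained sites were seldom listed in PR-deficient cells: 2.76% in the PR-deficient E2+R5020 list, 2.15% in that of R5020 and 2.82% in that of E2. Over the whole E2+R5020 list of T47D these shares were 4.77%, 2.175% and 5.7%. For its kept sites they were 47.6%, 2.79% and 67.2%, so the R5020 list held the classes about equally seldom. The PR-deficient lists of E2+R5020 and E2 hold wide sites, like the E2 list of T47D, with a median of 1329 bp with E2+R5020 and 1076.5 bp with E2, while that of R5020 has a median of 236 bp.

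Kept and lost E2 sites differed in score, and the PR-deficient lists also held high-scoring E2 sites more often. The classes were therefore compared within quartiles of E2 score. In the PR-deficient E2+R5020 list neither class had the higher share throughout. Kept sites were below lost sites in the lowest quartile (13.3% and 16.1%) and in quartile 3 (28.5% and 36.6%). They were above them in quartile 2 (26.1% and 22.2%) and in the highest (69.3% and 62.6%). The intervals of kept and lost sites overlapped in all 4 quartiles, which does not show that the shares were alike. In the highest quartile they were 64.7 to 73.6 and 58.5 to 66.6. In that quartile kept sites still had the higher median E2 score, 87.2 against 55.2 for lost sites. In the PR-deficient E2 list the shares of kept and lost sites were 23.3% and 33.7% in the lowest quartile, 45.9% and 44.7% in quartile 2, 64.6% and 59.4% in quartile 3, and 85.3% and 79.2% in the highest. In the reChIP list they stayed far apart: 31.1% and 4.27% in the lowest, 43.2% and 3.92% in quartile 2, 43.1% and 8.37% in quartile 3, and 67.4% and 13.4% in the highest. The PR list of E2+R5020 held 33.3% of kept and 7.99% of lost sites in the lowest quartile and 43.6% and 9.35% in the highest.

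With lost sites weighted to the score deciles of the kept sites (also chosen after seeing the data), the PR-deficient E2+R5020 list held 49.2% of kept and 50.1% of lost sites, and the PR-deficient E2 list 68.8% and 67.9%. The difference in these lists, 17.8 and 17.2 percentage points unweighted, was then -0.96 and 0.90. The difference in the reChIP list was 48.4 points unweighted and 44.7 weighted, and in the PR list of E2+R5020 32.8 and 32.2. Both of these lists share cell line and hormones with the list that defines kept sites, and the reChIP also its first target, ER. The ER list of R5020 alone held 17.8% of kept and 3.59% of lost sites, or 2.28% of lost sites when weighted.

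**Figure D4:**
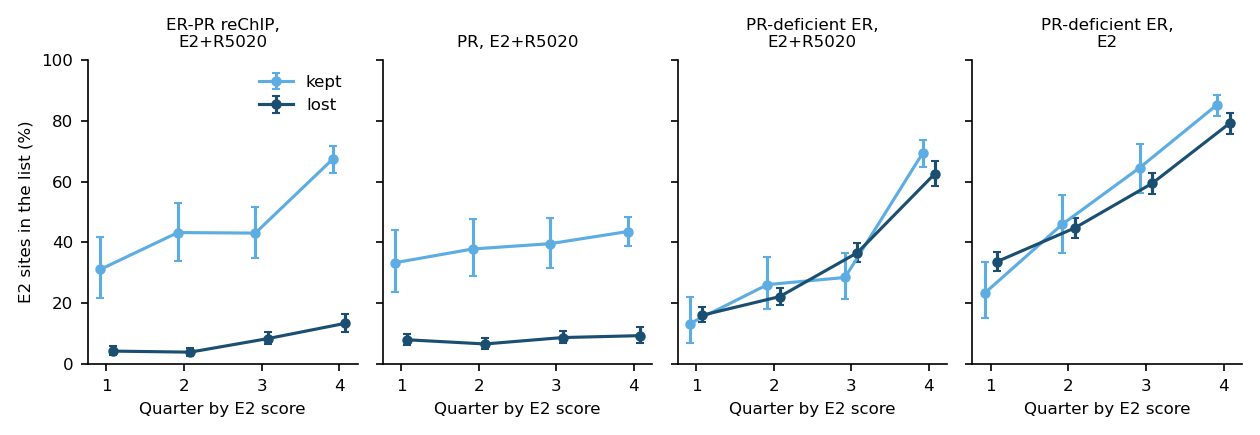
Share of kept and lost E2 sites (percent, with exact 95% intervals for counting error) in 4 other lists, by quartile of the E2 list by E2 score (1 lowest, 4 highest). Kept and lost sites run far apart in the reChIP list (67.4% and 13.4% in quartile 4) and in the PR list of E2+R5020, and closer together in both lists of PR-deficient cells, where kept sites of the E2 list lie below lost sites in quartile 1 (23.3% and 33.7%) and above them in quartile 4 (85.3% and 79.2%).

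Most E2+R5020 sites, and with them most gained sites, were in no other list. Of the whole list, 79.6% overlapped none of the other 8 and 4.2% overlapped 3 or more. Of the 18361 gained sites, 15221 (82.9%) overlapped none and 446 (2.43%) overlapped 3 or more. For kept E2+R5020 sites these shares were 9.9% and 42.1%. Few E2+R5020 sites of either class were listed with R5020 by itself. The ER list of R5020 held 4.47% (4.18 to 4.78) of the gained and 15.9% (13.6 to 18.6) of the kept E2+R5020 sites, and at least 1 of the 3 lists of R5020 alone held 6.62% of the gained and 19.1% of the kept. Over the whole E2+R5020 list these shares were 4.98% and 7.18%, close to those of its gained sites, which make up 95.5% of it. Shares were higher for sites of high score, gained and kept alike. The ER list of R5020 held 1.6% of gained sites in the lowest and 11.3% in the highest quartile by score, and the reChIP list 4.54% and 14.4%. The PR list of E2+R5020 held 2.81% and 4.58%. Of kept E2+R5020 sites, these lists held 4.44%, 36.1% and 26.7% in the lowest quartile, in that order. In the highest they held 33.3%, 74.5% and 56.4%.

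Width split the gained sites further. The reChIP list held 5.04% of the 8498 gained sites of up to 200 bp, 8.19% of those of 201 to 400 bp, 24.2% of those of 401 to 600 bp and 26.9% (23.5 to 30.6) of the 624 wider than 600 bp. Kept sites of the same widths were listed there more often in each of the 4 width classes, at 32.9%, 41.6%, 72.4% and 89.9% (81.7 to 95.3). The PR-deficient E2 list held 0.98% of the gained sites of up to 200 bp and 11.1% of those wider than 600 bp. A longer site has more room for an overlap, and sites wider than 400 bp also scored higher: the median score of gained sites was 33.7, 29.5, 42.1 and 50.6 in these width classes, narrowest first, with the lowest value at 201 to 400 bp.

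Sites of the E2+R5020 list stood in groups more often than those of the E2 list, which has fewer and wider sites. Another site of the same list lay within 1000 bp of 29% of all E2+R5020 sites and of 5.78% of all E2 sites. The gained and lost classes were close to their lists. Another gained site lay within 1000 bp of 5405 gained sites (29.4%), and another lost site lay within 1000 bp of 143 lost sites (4.42%). Sites of the E2+R5020 list also lay more often near an empty stretch, meaning at least 3 Mb where no list had a site. Within 2 Mb of one lay 14% of all E2+R5020 sites and 1.97% of all E2 sites. By class this held for 14.5% of gained and 1.86% of kept E2+R5020 sites, and for 1.79% of kept and 2.01% of lost E2 sites. Whether sites near such stretches reflect ER binding was not tested. The 2667 gained sites near such stretches had a median width of 177 bp, a median score of 37.9 and an 8.14% share in the ER list of R5020, against 210 bp, 29.5 and 3.85% for the other gained sites. The reChIP list held 10.8% of the gained sites near such stretches and 7.85% of the others. Chromosome Y held 335 gained, 1 kept and 4 lost sites. The reChIP list held 23.6% of the gained sites on Y, against 8.28% of all gained sites. Whether sites on Y reflect ER binding was not tested. Without chromosome Y and the sites near empty stretches, 83.2% of the remaining 15648 gained sites overlapped none of the other 8 lists, and the reChIP list held 7.87% of them.

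The 6 sites of highest score in each class are given next. Positions are those of the hg19 build, and the genes at them were not analysed here. Unlike most gained sites, all 6 leading gained sites were in the ER list of R5020, and 4 of the 6 were in the reChIP list. The gained site of highest score, chr3:127022770-127023798, scored 328.69, and its nearest E2 site was 145 kb away. It was also listed for PR with E2+R5020 and with R5020, and in the reChIP list, and in none of the 3 PR-deficient lists. The next, chr10:79631764-79632774, lay 279 bp from an E2 site and chr4:6752494-6753183 lay 3.59 kb from one. Both of these were in the PR-deficient lists of E2+R5020 and E2. The other 3 of the leading 6 were 200 to 222 bp wide. They were chr1:121468039-121468238, which was also in the reChIP list, chrY:58851640-58851861 and chrY:58869596-58869797, which was also in the PR-deficient list of R5020. Chromosome Y held 1.82% of gained and 0.116% of kept E2+R5020 sites, and 1.75% of that whole list. Whether these 3 narrow sites, or the other sites on Y, reflect ER binding was not tested.

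The 6 leading kept sites of the E2+R5020 list were in 2 to 7 of the other 8 lists. The first, chr7:157413322-157414299, had a score of 206.48 (rank 4 with E2+R5020) and lay in an E2 site of rank 77. It was in 7 of the other lists. chr19:39899973-39900595 and chr11:120507450-120508422 followed, with scores of 202.27 and 176.99, in 4 and 5 of the other lists. The next 3 were chr19:34370524-34371370, in 2 other lists and not in the reChIP list, chr19:18392234-18392937, in 3, and chr1:17641018-17641763, in 6. The leading kept E2 site, chr19:34369141-34371898, scored 209.37 with E2 and held the E2+R5020 site chr19:34370524-34371370 at rank 29. The other 5 leading kept E2 sites, chr14:50458957-50461071, chr13:114535844-114537915, chr4:6415678-6417778, chr15:33359487-33361754 and chr12:2883618-2886755, held E2+R5020 sites of rank 162, 282, 1446, 1446 and 1446. All 6 E2 sites overlapped the reChIP list and the PR-deficient lists of E2+R5020 and E2. An E2 site of 2565 bp, chr10:6338378-6340942, was the highest-scoring of the 4 that held 3 E2+R5020 sites, which were 264, 340 and 367 bp wide.

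Lost sites of high E2 score were often found again in PR-deficient cells, and so were kept ones. In the highest quartile by E2 score, the PR-deficient E2 list held 79.2% of lost and 85.3% of kept sites. The PR-deficient E2+R5020 list held 62.6% and 69.3%. The first of the 6 leading lost sites, chr11:100904377-100905506, scored 166.92 (rank 43 with E2), with the nearest E2+R5020 site 53 kb away. The others were chr20:20420915-20422534, chr5:149059317-149061253, chr21:16582236-16583360, chr2:11670718-11671919 and chr2:118227483-118228609, with ranks of 46 to 90 and gaps of 5.86 to 178 kb. All 6 were in the PR-deficient E2 list and 5 of the 6 in the PR-deficient E2+R5020 list. The exception was the site on chromosome 11, which was in the reChIP list of E2+R5020. None of the 6 was in a PR list. The 3 lost sites of highest score in the reChIP list were those of chromosomes 11 and 21 and chrX:121496736-121498228, which scored 119.81.

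Chromosomes differed more in the number of E2+R5020 sites per E2 site than in the share of E2 sites kept. The E2+R5020 list held 2.18 sites per E2 site on chromosome 22, 3.17 on chromosome 1 and 3.29 on chromosome 19, against 7.63 on chromosome 7, 9.13 on chromosome 4 and 10.1 on chromosome X. The kept share of E2 sites ran from 14% on chromosome 15 to 26.6% (19.8 to 34.3) on chromosome 8, and the interval held 19.5%, the share over all sites, on 21 of 23 chromosomes other than Y. The kept share of E2+R5020 sites, 4.47% over all sites, ran from 1.76% (0.94 to 3) on chromosome X to 12% (8.81 to 15.9) on chromosome 22. This share is not a separate result. It follows closely from the values above, since most kept E2 sites held 1 E2+R5020 site. Again leaving out Y, its interval lay above 4.47% on 5 chromosomes and below it on 4.

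**Figure D5:**
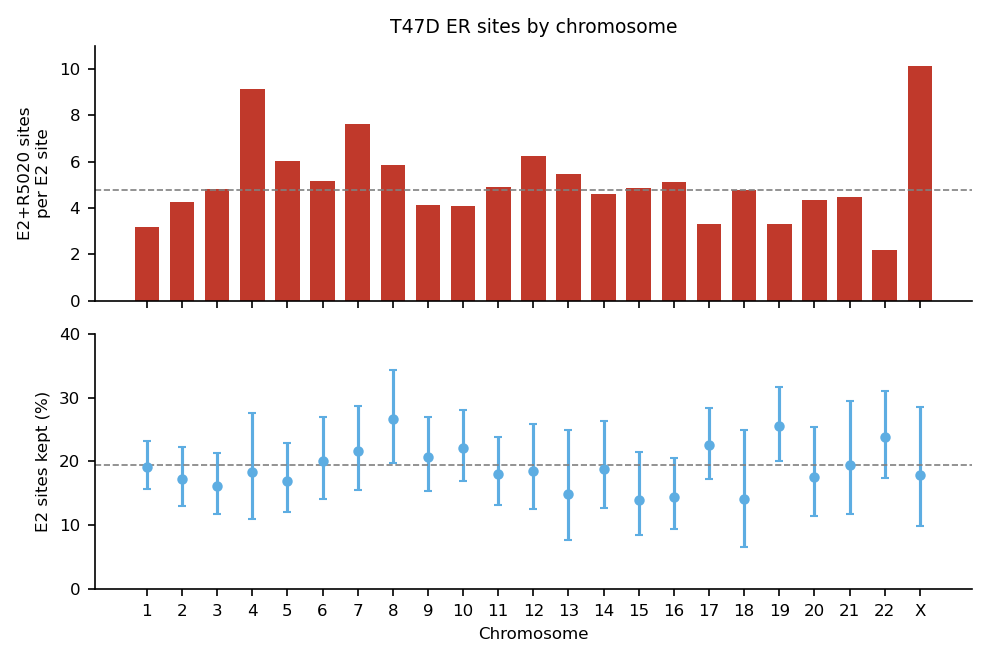
Number of E2+R5020 sites per E2 site (top) and share of E2 sites kept (bottom, percent, with exact 95% intervals for counting error) on each chromosome other than Y; dashed lines are the values over all sites, 4.79 and 19.5%. The number per E2 site ran from 2.18 on chromosome 22 to 10.1 on chromosome X, while most intervals of the kept share held 19.5%.

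The same addition of R5020 to E2 in PR-deficient cells gave lists that shared more of their sites. There, 75.4% (74.2 to 76.5) of the 5663 E2+R5020 sites and 55.5% (54.4 to 56.6) of the 7742 E2 sites were kept, against 4.47% and 19.5% in T47D. The number of E2+R5020 sites per E2 site was 0.731 there and 4.79 in T47D. Both of those lists held wide sites, whereas in T47D one list was wide and the other narrow. Depth, width and the presence of PR cannot be told apart in this contrast, which had 1 library per group.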

How the data were processed

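The submitters' processing notes name Bowtie2, MACS and hg19, without roles, and versions and settings are not given in the sources used here. The score of each site was deposited by the authors, with no unit, and ranks sites within a list only. Of 26 samples in 26 groups of 1 library, 10 had a deposited list. Vehicle libraries (and IgG for the reChIP) had been subtracted, per the labels.

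Overlaps were computed with Python 3.11.15, NumPy 2.4.6, pandas 2.3.3 and SciPy 1.17.1, figures with matplotlib 3.10.9, and the overlap code was tested on simulated lists. Tied scores share a rank, and ties among named sites were ordered by width, then position. Classes, members and settings were chosen with earlier results of these data known. Named sites are the 6 of highest score in each class, the E2 sites with most E2+R5020 sites and the 3 lost sites of highest score in the reChIP list. Planned gene distances and motifs were not run, because the reference tables used another build than hg19. No test between hormones was possible with 1 library each.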

Additional observations from a re-analysis of the deposited data

Results flagged for a closer look

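The number of ER sites listed with E2+R5020 per site listed with E2 moved in opposite directions in the 2 lines: it was 0.731 in PR-deficient cells and 4.79 in T47D cells. The difference was not tested, since each group had 1 library, and site numbers depend on depth and threshold, which were not stated.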

How the results depend on the processing

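No paired analysis was possible because all groups held 1 library. Of 52 values under other settings, 31 stayed within the counting interval of the reported value, 20 moved beyond it and 1 changed sign. The kept share of E2 sites (19.5%) was 1.12% where 50% or more of each site had to overlap, 17% with the higher-scoring 50% of both lists, 6.23% with lists of equal length and 12.3% with all sites 200 bp wide. Under these settings that of E2+R5020 sites (4.47%) was 0.234%, 3.64%, 6.28% and 2.63%. It was 4.82% with sites merged within 500 bp and 5.11% without chromosome Y and sites near empty stretches. Wide E2 sites and narrow E2+R5020 sites can seldom meet the 50% rule by construction. It left 45 kept sites in each list, and it was applied to overlaps with the other lists as well. The reChIP share of kept minus lost E2 sites (48.4 points) was 43, 60.7, 64.5 and 42.3 in that order, and 44.7 with lost sites weighted to the score deciles of kept sites. The PR-deficient E2+R5020 share of kept minus lost (17.8 points) was 8.48 (counting interval -5.61 to 24.2) with 50% of both sites and 28.1 with equal lengths. It turned to -0.959 with that weighting, which was added after the data were seen and evens out score by construction. The share of gained minus kept E2+R5020 sites in the ER list of R5020 (-11.5 points) was -36.5 (counting interval -52.2 to -22.2) with 50% of both sites. It was -14.5 with the higher-scoring 50% and -23.2 with equal lengths. Alternatives by gene distance and motif window were not run. Without depth or replicates, a site missing from a list may lie just below its threshold.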
